A study of Rattus norvegicus with 6 samples.

Results

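Immediate early genes are those that a cell transcribes within minutes of a stimulus from factors it already holds, before any new protein is needed. Most of them encode transcription factors or short-lived regulators, and their messenger RNAs are quickly destroyed, so that a signal shows as a brief pulse. In liver they are known to respond to partial hepatectomy, growth factors, oxidative injury and many toxicants.

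The set considered here held 10 of these genes by symbol: Fos, Jun, Junb, Egr1, Ier2, Ier3, Myc, Atf3, Btg2 and Klf6. Every probe set whose only symbol in the platform annotation was one of these was taken, which gave 14 probe sets for 9 of the 10 genes. Btg2, which encodes an antiproliferative protein induced by p53, was the symbol of no probe set on its own and has no value here. A probe set was kept where its mean over all arrays lay above the 40th percentile, and 12 of the 14 passed, with at least 1 for each of the 9 genes. A probe set of Fos (1371283_at, 2.11 to 2.17) and one of Klf6 (1395557_at, 2.65 to 2.84) lay at the floor of the array values and were left out. Where a gene had several probe sets, the one with the highest mean stands for it, so that the 9 genes are set beside 10449 genes in all.

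The values are the authors' deposited log2 signals of 6 Affymetrix arrays of liver RNA from male Sprague Dawley rats. The drug was tienilic acid (TA), a uricosuric diuretic withdrawn because of hepatitis, at 100 mg/kg by mouth in a solution of sodium bicarbonate. The series title asks about acute gene induction and danger signals. The 4 groups were TA at 24 h (2 animals, an array each), vehicle at 24 h (1 array, on which the RNA of 2 rats was combined), TA at 6 h (2 animals, an array each) and vehicle at 6 h (1 pooled array of 2 rats), 8 animals in all. Rats of 24 h had a dose at 0 h and another at 16 h, so that their livers were taken 8 h after the last dose, against 6 h after the only dose in the others. Vehicle rats received sodium bicarbonate on the same schedule. The labels describe the TA arrays of a time as separate animals. A pool gives no spread between vehicle animals, and every error below rests on the TA animals.

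The arrays were of liver and of like brightness. Albumin was at 16.54 to 16.67 on all 6 arrays, and the array medians lay between 3.27 and 3.31. Runs were inferred from the clock times of the hybridization entry in the instrument settings, read without the calendar date. These times put TA animal 1 of 6 h and the 6 h vehicle pool in a run of their own, and the 4 other arrays in another. That animal also had the widest 3′ to 5′ signal gap for GAPDH, which reflects RNA integrity, at 2.26, against 1.82 to 2.04 on the others, while its gap for actin, 4.31, lay within the range of the others (4.17 to 4.36). It stood apart in the results that follow as well, and these are given with and without it.

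No immediate early gene passed the test between TA and vehicle livers at either time. The largest differences of the group means among the 9 genes were those of Egr1 at 24 h (-0.50 ± 0.59 on the log2 scale, SE) and of Junb at 6 h (-1.38 ± 0.61). Limma's test, adjusted over 18625 probe sets, called none of the 12 at 24 h, where 0.00537% of all probe sets were called (1 probe set, with no symbol), and none at 6 h, where 0% were. An unadjusted p under 0.05 was reached by 984 probe sets at 24 h and by 1087 at 6 h, and by none of the 12. The adjusted p of the 9 genes was 1 throughout at 24 h and was 0.917 or higher at 6 h. The difference between the effects at 24 h and 6 h was also called for none of them (0.00537% of all probe sets).

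The direction was mixed as well. At 24 h both TA animals lay above the vehicle pool for 2 of the 9 genes, Ier3 and Atf3 (28.1% of all genes did so), and both below it for 3, Jun, Junb and Myc (34.5% of all genes). At 6 h both lay above it for 0 of the 9 (22.9% of all genes) and both below it for 3, Junb, Egr1 and Atf3 (38.4% of all genes). Apart from the 0 of 9 at 6 h, these shares are near those over all genes. That 0 follows from animal 1 alone, which lay below the 6 h pool for all 9 genes. On a second probe set of Klf6 (1388986_at) both animals lay above the pool, by 0.40 and 0.38. The median log2 difference of the 9 genes was -0.13 at 24 h, with -0.05 in animal 1 and -0.02 in animal 2, and over all genes it was -0.01. At 6 h it was -0.28, and the animals lay on opposite sides of the pool at -0.83 and 0.26, while over all genes it was -0.03. Without TA animal 1 of 6 h the 6 h median was thus 0.26. With both TA animals of 6 h set against the 24 h vehicle pool instead, it was 1.01, a value that includes the difference between the pools.

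**Figure D1:**
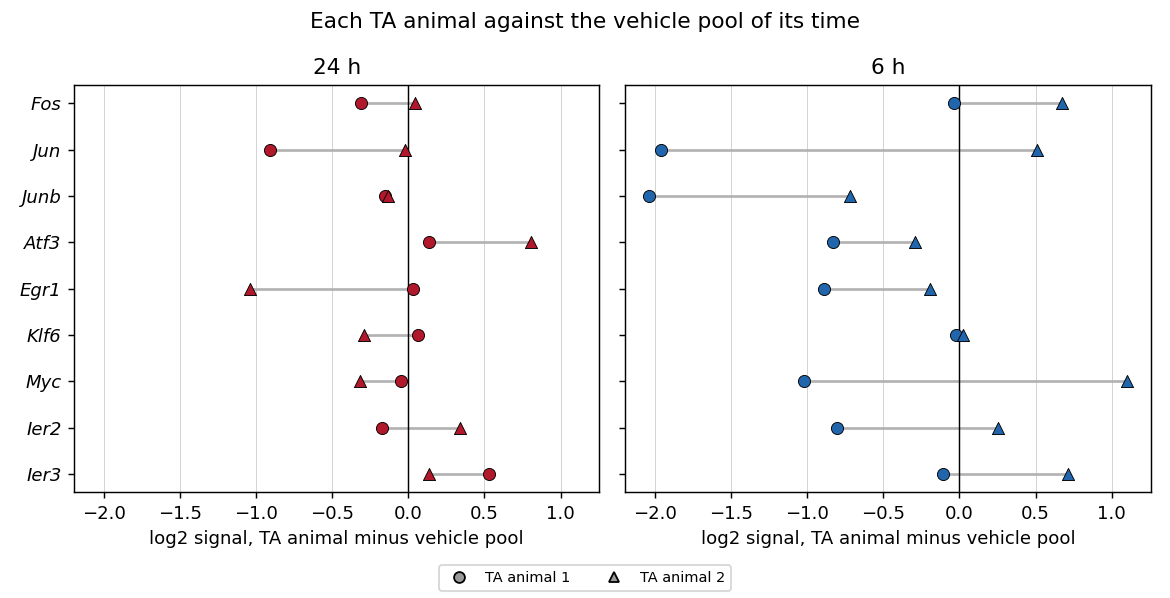
Log2 signal of each TA animal minus that of the vehicle pool of its time, for 9 immediate early genes. Circles are animal 1 and triangles animal 2, with 24 h on the left and 6 h on the right. At 6 h circles lie left of or at the pool for all 9 genes, down to -2.04 for Junb, while triangles run from -0.72 for Junb to 1.10 for Myc.

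The proteins that bind AP-1 sites come as pairs from the Jun, Fos and ATF families. Jun, which pairs with itself or with Fos, had log2 signals of 7.29 and 8.17 in the TA livers of 24 h and 8.20 in the 24 h vehicle pool, and of 8.04 and 10.50 in the TA livers of 6 h and 10.00 in the 6 h vehicle pool (probe set 1389528_s_at). Animal 2 and the pool of 6 h stood alone at the top, and animal 1 of 6 h lay among the arrays of 24 h. The other probe sets of Jun ranked the 6 h arrays with the pool on top: 1374404_at read 6.18 and 7.69 in TA livers and 7.85 in the pool, and 1369788_s_at read 5.53 and 7.21 in TA livers and 7.30 in the pool. So TA animal 2 of 6 h differed from the pool by 0.51 on 1 probe set of Jun and by -0.17 and -0.09 on the others. At 24 h all 3 probe sets of Jun were lower in both TA animals than in the pool, with differences from -0.91 to -0.02.

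Junb, which encodes a Jun protein often found to restrain Jun, was at 4.95 and 4.97 in the TA livers of 24 h and at 5.10 in the 24 h vehicle pool, and at 5.45 and 6.77 in the TA livers of 6 h and 7.49 in the 6 h vehicle pool. The 3 arrays of 24 h were close together and below every array of 6 h, and the 6 h vehicle pool was the highest array. Its difference at 6 h, -1.38 ± 0.61 (limma, adjusted p = 0.917), had a 95% interval from -3.15 to 0.38. Against the 24 h vehicle pool the same animals differed by 1.01, in the opposite direction. That value includes the difference between the pools (-2.40, 24 h minus 6 h), so the turn of direction follows from the pools.

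Fos, the partner of the Jun proteins, was at 3.07 and 3.43 in the TA livers of 24 h and 3.38 in their pool, and at 3.40 and 4.11 in the TA livers of 6 h and 3.44 in theirs (1375043_at). Only animal 2 of 6 h reached 4, and the other arrays of all groups overlapped below it. Atf3, a stress-induced repressor of the ATF family, was at 3.57 and 4.25 in the TA livers of 24 h and 3.44 in their pool, and at 3.42 and 3.95 in the TA livers of 6 h and 4.25 in theirs. Its groups overlapped, and both animals lay above the pool at 24 h and below it at 6 h. The values of Fos and Atf3 are low on these arrays, where differences are compressed.

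Serum response factor and the cAMP-responsive factors CREB and ATF switch on many immediate early genes from sites close to the start, Egr1 being a textbook target of serum response factor. To show the letters that such factors read, the 250 bases before the annotated start of 3 genes are printed below as the RefSeq table gives them for the rat build GRCr8, in lower case with matches in capitals. Of the 10 genes, 5 had an entry (Junb, Egr1, Ier2, Btg2 and Klf6). Junb, with no match, and Btg2, with no array value, are not printed. The capitals mark CArG boxes, which serum response factor binds, in Egr1 (beginning 105 and 83 bases before the start) and Klf6 (201 bases before it), and a cAMP response element, TGACGTCA, in Ier2 (66 bases before it).
Egr1, chr18:26736828-26737077, plus strand: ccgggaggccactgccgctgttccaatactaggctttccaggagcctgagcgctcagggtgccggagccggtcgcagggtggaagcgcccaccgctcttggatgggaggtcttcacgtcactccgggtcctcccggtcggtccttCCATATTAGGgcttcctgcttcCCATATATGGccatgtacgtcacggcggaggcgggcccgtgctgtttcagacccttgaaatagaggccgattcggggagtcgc
Klf6, chr17:69458479-69458728, minus strand: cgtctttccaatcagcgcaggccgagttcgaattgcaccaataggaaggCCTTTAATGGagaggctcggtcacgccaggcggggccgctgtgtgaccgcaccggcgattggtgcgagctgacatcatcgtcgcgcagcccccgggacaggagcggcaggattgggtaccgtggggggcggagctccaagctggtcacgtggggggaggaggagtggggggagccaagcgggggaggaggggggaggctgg
Ier2, chr19:40399123-40399372, plus strand: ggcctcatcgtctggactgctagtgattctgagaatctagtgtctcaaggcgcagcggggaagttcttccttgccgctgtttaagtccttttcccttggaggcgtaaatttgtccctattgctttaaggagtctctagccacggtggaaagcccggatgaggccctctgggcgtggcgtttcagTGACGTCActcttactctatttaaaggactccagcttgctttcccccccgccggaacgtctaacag

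On both strands, a CArG box was found in 1.5% of 33469 rat promoters of this length and in 2 of the 5. TGACGTCA was found in 1.59% and in 2 of the 5, Ier2 and Btg2. An AP-1 site (TGANTCA) was found in 6.34% of promoters and an EGR site (GCGTGGGCG) in 0.478%, each in 0 of the 5. None of the matched stretches overlapped another. A match is a stretch of letters, not a site shown to be bound.

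Egr1, a growth and stress factor that itself binds GC-rich promoters, had the widest range of the set. It was at 6.30 and 5.22 in the TA livers of 24 h and 6.26 in their pool, and at 8.43 and 9.13 in the TA livers of 6 h and 9.32 in theirs. Every array of 24 h lay at least 2.14 below every array of 6 h. It was also the 1 gene of the 9 whose TA animals of 24 h were at least 2-fold apart, which held for 2.71% of all genes. Against the pool of its time, TA animals straddled it at 24 h (0.03 and -1.04) and both lay below it at 6 h (-0.89 and -0.19).

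Klf6, a Krüppel-like factor active in liver injury and in stellate cells, was at 6.68 and 6.32 in the TA livers of 24 h and 6.62 in their pool, and at 7.50, 7.54 and 7.52 in the TA livers and the pool of 6 h (1387060_at). The 6 h arrays spanned 0.04, the narrowest span at 6 h among the 9 genes, and lay above all arrays of 24 h. A second probe set, 1388986_at, read 6.56 and 6.21 in the TA livers of 24 h and 6.32 in their pool, and 7.10, 7.08 and 6.70 in the TA livers and the pool of 6 h. There both TA animals of 6 h were 0.40 and 0.38 above the pool, a difference not seen on the brighter probe set (-0.02 and 0.02).

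Ier2 was at 8.16 and 8.68 in the TA livers of 24 h and 8.34 in their pool, and at 8.72 and 9.78 in the TA livers of 6 h and 9.53 in theirs. The lowest array of 6 h was 0.04 above the highest of 24 h. Ier3, an immediate early gene that protects cells from apoptosis and is tied to NF-kB signalling, was at 7.18 and 6.79 in the TA livers of 24 h and 6.65 in their pool, and at 7.68 and 8.50 in the TA livers of 6 h and 7.79 in theirs. The times did not overlap, and both TA animals of 24 h lay above their pool, by 0.53 and 0.14.

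Myc, the factor that drives growth and ribosome synthesis, was at 5.39 and 5.12 in the TA livers of 24 h and 5.44 in their pool, and at 5.48 and 7.60 in the TA livers of 6 h and 6.50 in theirs. Animal 1 of 6 h lay just above the arrays of 24 h, and animal 2 was the highest array. The animals of 6 h stood at -1.02 and 1.10 from the pool, so that the group difference of 0.04 ± 0.98 describes neither of them.

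**Figure D2:**
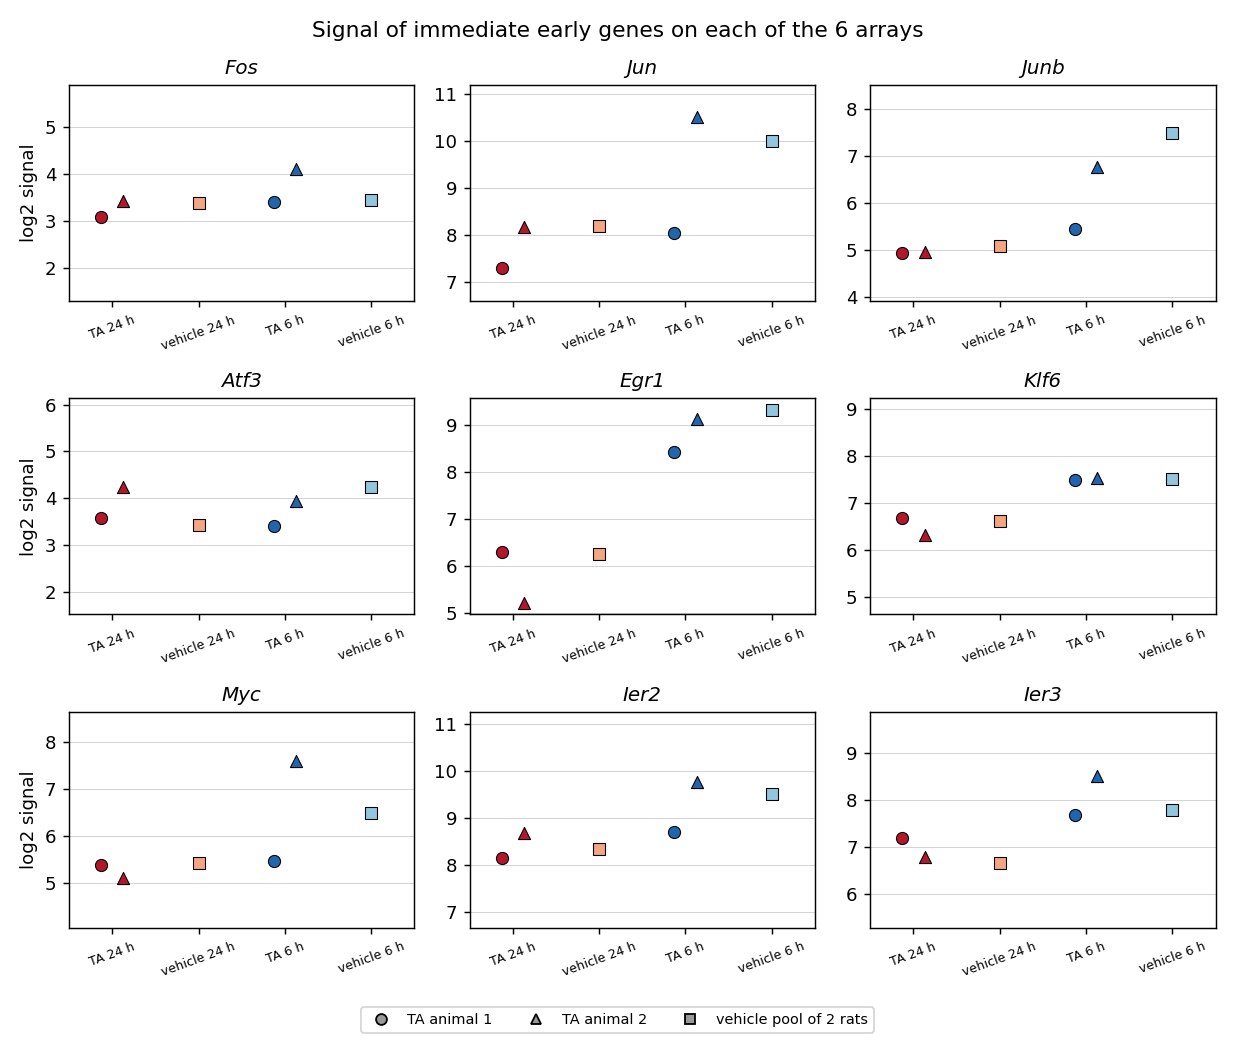
Log2 signal of 9 immediate early genes on the 6 arrays, 1 panel for each gene. Points are TA animals (circle and triangle) and squares are vehicle pools, with 24 h left of 6 h. The 24 h arrays lie below the 6 h arrays without overlap for Junb, Egr1, Klf6, Myc, Ier2 and Ier3.

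Between the times most of the set differed in one direction, lower at 24 h. All 3 arrays of 24 h lay below all 3 of 6 h for 6 of the 9 genes (Junb, Egr1, Ier2, Ier3, Myc and Klf6), against 15.1% of all genes, and above them for 0, against 13.3%. Fos and Jun joined the 6 when TA animal 1 of 6 h was left out, which made 8 of 9, against 26.8% of all genes. Leaving out any other array gave 6 or 7, and dropping an array cannot lower this count. The median log2 difference of TA at 24 h from TA at 6 h was -1.10, and that of the vehicle pools was -1.13, while over all genes they were -0.00 and -0.01.

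Egr1 was lower in TA livers of 24 h than of 6 h by 8.12-fold (log2 difference -3.02 ± 0.48, SE, 2 animals each), Ier3 by 2.15-fold (-1.10 ± 0.35) and Klf6 by 2.03-fold (-1.02 ± 0.15). Klf6 on its second probe set had -0.70 ± 0.15. These 4 of the 12 probe sets had an unadjusted p under 0.05 in limma's test (0.0047, 0.039, 0.0038 and 0.013), a mark that 6.93% of all probe sets reached in the lower direction and 7.89% in the higher, where none of the 12 did. Adjusted over all probe sets none was called, with adjusted p of 0.188 for Egr1, 0.305 for Ier3 and 0.184 and 0.222 for Klf6. No probe set on the arrays was called either (0% of 18625, limma, smallest adjusted p = 0.136), although 2760 had an unadjusted p under 0.05. Jun (-1.54 ± 0.98), Myc (-1.28 ± 0.80), Junb (-1.16 ± 0.50), Ier2 (-0.83 ± 0.45) and Fos (-0.51 ± 0.31) were lower on average within errors that the spread of the 6 h animals made wide, and Atf3 was at 0.23 ± 0.33.

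The vehicle pools also differed between the times, with lower values at 24 h for all 9 genes, Atf3 included, which in TA livers was at 0.23. In the pool of 24 h, 6 of the 9 genes were at least 2-fold lower than in the pool of 6 h, against 1.57% of all genes. The log2 differences were -3.06 for Egr1, -2.40 for Junb, -1.80 for Jun, -1.19 for Ier2, -1.13 for Ier3 and -1.06 for Myc. Klf6 (-0.90), Atf3 (-0.81) and Fos (-0.06) made up the rest. These are single pools with no test, and they share no RNA with the TA livers. Time since the start, number of doses, hours after the last dose and, if dosing began at the same hour, time of day cannot be told apart in this design.

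The size of the difference between times depended on which TA animal of 6 h was used. The median of the 9 genes was -1.51 without animal 1 and -0.31 without animal 2. Leaving out animal 1 also restricts the TA comparison to the arrays of 1 inferred run, and in that setting Jun had -2.77, Myc -2.34 and Junb -1.82. Without animal 2 these were -0.31, -0.22 and -0.50. Egr1 had -3.37 without animal 1 and -2.67 without animal 2, far below 0 in both. Klf6 had -1.04 and -0.997, the smallest change of the 9 genes. Atf3 changed sign, at -0.04 without animal 1 and 0.49 without animal 2.

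**Figure D3:**
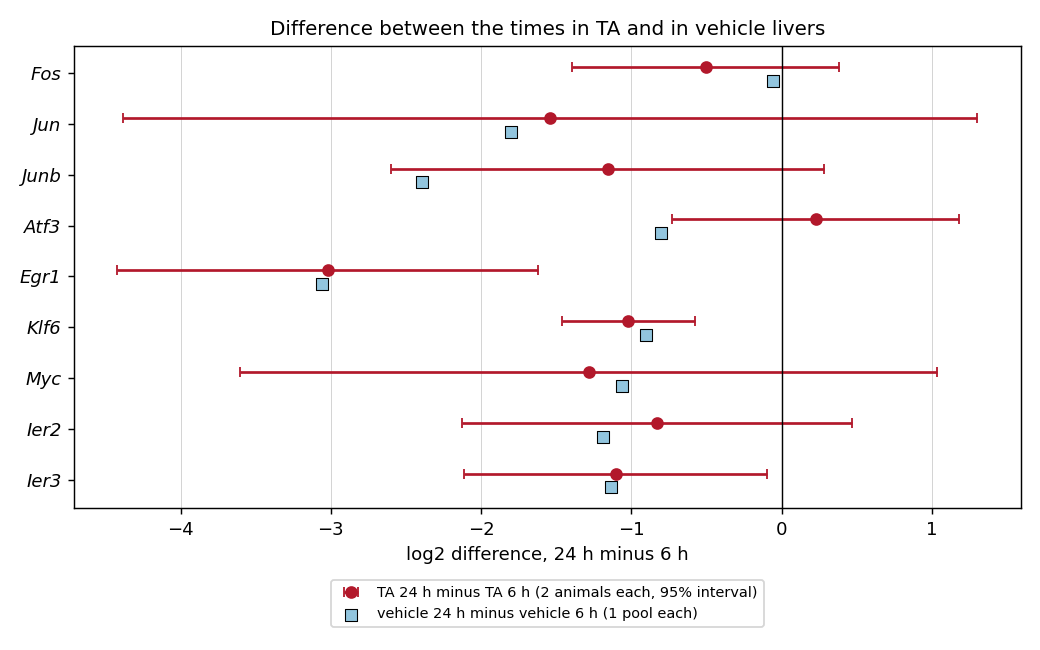
Log2 difference of 24 h minus 6 h for 9 immediate early genes, in TA livers (red circles, 95% interval from limma, 2 animals each) and in vehicle pools (blue squares, 1 pool each, no interval). The interval lies below 0 for Egr1, Klf6 and Ier3. The vehicle pools are below 0 for all 9 genes.

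The TA animals of 6 h differed from each other in the same direction across the set. Animal 1 was the lowest of the 3 arrays of 6 h for 9 of the 9 genes on the probe set that stands for each, against 41.7% of all genes. It was at least 2-fold below animal 2 for 4 of the 9, Jun, Myc, Junb and Ier2, against 0.957% of all genes. The log2 gaps, animal 1 minus animal 2, were -2.47 for Jun, -2.12 for Myc, -1.32 for Junb and -1.06 for Ier2, and -0.82 for Ier3, -0.71 for Fos, -0.70 for Egr1, -0.53 for Atf3 and -0.04 for Klf6. The second probe set of Klf6 read 0.02 higher in animal 1. Animal 1 had the GAPDH gap of 2.26 given above, against 1.92 in animal 2, and fell in another inferred run. Their part in this difference was not tested. The 6 h vehicle pool, placed in the same inferred run as animal 1, was above it for all 9 genes. The differences of animal 1 from the pool lay between -0.02 for Klf6 and -2.04 for Junb.

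**Figure D4:**
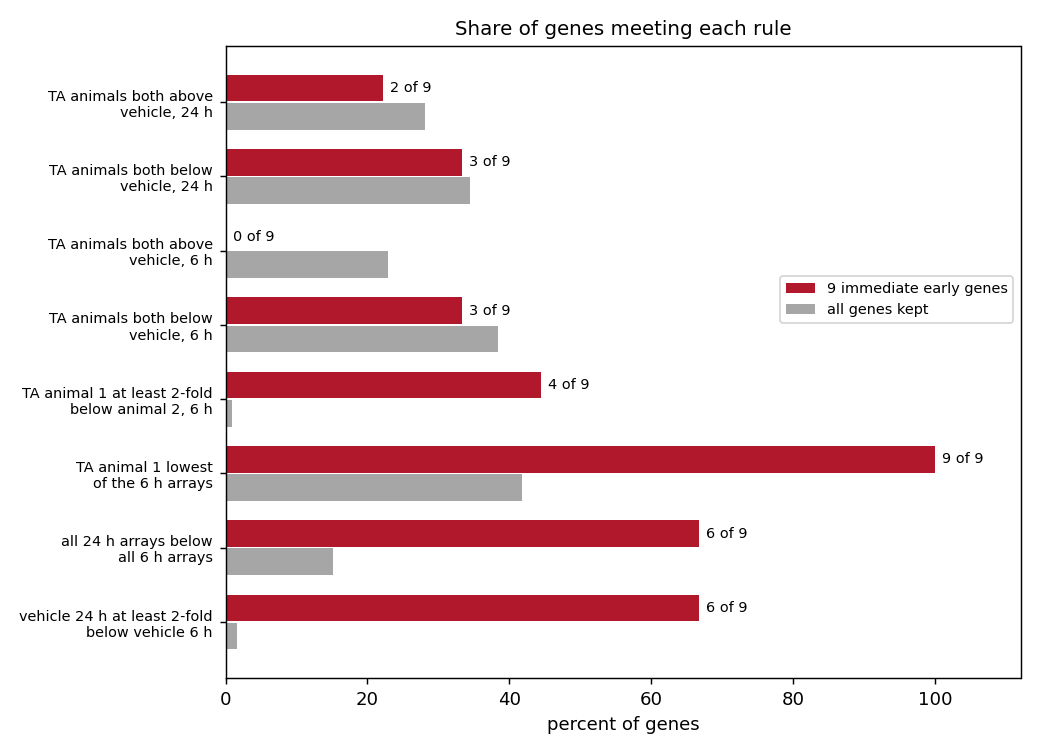
Percent of genes that met each rule on the arrays, for the 9 immediate early genes (red) and for all 10449 genes (grey). The shares are alike for the comparisons of TA with vehicle, except that 0 of 9 lay above the 6 h vehicle pool in both animals (22.9% of all genes), and they differ for the rules between TA animals of 6 h and between times.

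Other immediate early genes were followed through lists, and none of their genes was called in any of the 4 comparisons (limma, adjusted p from 0.136 upward). Of 25 kept genes of signalling and growth, 18 were lowest in animal 1 among the 6 h arrays (41.7% of all genes were). Some of the 18 were low and lay hundredths apart, such as Phlda1 at 2.95 and 3.02 in the animals and 2.99 in the pool. At least 2-fold lower in animal 1 than in animal 2 were 5 (0.957% of all genes). The widest gap was that of Gadd45g, a stress sensor of the Gadd45 family, at 6.80 in animal 1 and 10.38 in animal 2, with 10.21 in the pool. Dusp1, the phosphatase that switches off MAP kinases, was at 8.95 and 11.37 in the animals and 11.03 in the pool. Dusp6, a phosphatase of ERK, was at 7.40 and 9.39, with 9.58 in the pool. Gadd45a (7.41 and 9.04) and Zfp36, which destabilises messages with AU-rich elements (8.35 and 9.37), were the others. Of 15 kept transcription factors, 10 were lowest in animal 1 among the 6 h arrays. Of these, Nr4a2 and Per1 were low and nearly flat at 6 h, Per1 at 3.33 and 3.37 in the animals and 3.36 in the pool. Bhlhe40, a repressor within the circadian clock, was at 4.47 in animal 1 and 7.81 in animal 2, with 8.43 in the pool.

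Between the times these lists had genes in both directions, to be read against the 15.1% of all genes that lay lower on all arrays of 24 h and the 13.3% that lay higher. Of the 25 genes of signalling and growth, 8 lay lower on all arrays of 24 h than on all of 6 h (32%). In the opposite direction lay 4 (16%), and the median TA difference was -0.14. Among the 8, Gadd45b and Ccl2 were low, with 6 h minima of 3.16 and 2.79 against 24 h maxima of 3.15 and 2.77. Without TA animal 1 of 6 h, 16 of the 25 lay lower (64%), against 26.8% of all genes. Dropping an array cannot lower this count. Ier5, an immediate early relative of Ier2, was at 8.97 and 8.96 in the TA livers of 24 h and 8.44 in their pool, and at 7.87 and 7.92 in the TA livers of 6 h and 8.10 in theirs. Sgk1, a kinase induced by glucocorticoids, was at 10.57 and 11.61 in the TA livers of 24 h and 10.30 in their pool, and at 8.32 and 9.08 in the TA livers of 6 h and 9.84 in theirs. Both thus lay higher at 24 h, opposite to Ier2 and Egr1. Of the 15 transcription factors, 1 lay lower on all arrays of 24 h (Klf9, a glucocorticoid target) and 2 higher (Nfil3 and Hes1). Their median TA difference was 0.01. Without TA animal 1 of 6 h, 4 of the 15 lay lower, near the 26.8% of all genes.

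Other genes of the AP-1 family had 12 with a probe set and 5 kept, of which 4 lay lower on all arrays of 24 h (Atf2, Maf, Mafg and Mafk; 15.1% of all genes) and 0 higher (13.3% of all genes). The small Maf gene Mafk was at 6.00 and 6.10 in the TA livers of 24 h and 5.90 in their pool, and at 6.57 and 6.55 in the TA livers of 6 h and 6.31 in theirs. Jund, the Jun family member that is made at a steady level, differed by -0.06 ± 0.18 between TA livers of 24 h and 6 h. Atf2 was near the floor on every array but the 6 h vehicle pool (3.47), so that its order among the others carries little.

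Upstream of these genes lie the MAP kinases and the factors of the serum response. Of 19 kept genes, 3 lay lower on all arrays of 24 h (Elk1, Elk4 and Mrtfa) and 2 higher (Atf1 and Crem), near the 15.1% and 13.3% of all genes, and the median TA difference was 0.01. Elk4, a partner of serum response factor at CArG boxes, had a log2 difference of -0.71 ± 0.20 between TA livers of 24 h and 6 h, and Crem, a cAMP-responsive modulator, 0.96 ± 0.11. Srf itself was at 7.51 and 7.05 in the TA livers of 24 h, against 6.42 in their pool (limma, adjusted p = 0.904). In the TA livers of 6 h it lay below the pool, at 6.90 and 6.72 against 7.15.

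Myc partners and targets were, unlike Myc, more often higher than lower at 24 h by these counts. Of 20 kept genes, 9 lay higher on all arrays of 24 h (13.3% of all genes) and 0 lower (15.1% of all genes), with a median TA difference of 0.14 beside -1.28 for Myc. Odc1, the ornithine decarboxylase that begins polyamine synthesis, was at 10.87 and 10.82 in the TA livers of 24 h and 10.99 in their pool, and at 9.80 and 9.72 in the TA livers of 6 h and 10.19 in theirs. Srm, spermidine synthase, was below the pool in both TA livers of 6 h, with a difference of -0.48 ± 0.12 (limma, adjusted p = 0.798).

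Partners of Atf3 in the stress response, and p53 targets that Btg2 belongs with, split in both directions. Of 8 stress genes, 2 lay lower on all arrays of 24 h (Trib3 and Fgf21) and 2 higher (Ddit3 and Sesn2). Of 8 p53 targets, 3 lay lower (Mdm2, Bbc3 and Perp) and 2 higher (Cdkn1a and Ccng1). In lists of 8 genes these counts are not far from the 15.1% and 13.3% of all genes. Cdkn1a, the p21 cell cycle inhibitor, was at 8.77 and 8.52 in the TA livers of 24 h and 7.80 in their pool, and at 6.69 and 6.50 in the TA livers of 6 h and 7.08 in theirs.

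Markers of liver cell types were set beside these results, since in bulk RNA fewer cells of a type and less RNA per cell cannot be told apart. Between TA livers of 24 h and 6 h the median log2 difference was -0.48 over 9 stellate cell markers, -0.33 over 9 macrophage markers, -0.23 over 6 endothelial markers and -0.07 over 5 hepatocyte markers. All 3 arrays of 24 h lay below all 3 of 6 h for 3 of the 9 stellate markers. The same held for 3 of the 9 macrophage markers, 2 of the 6 endothelial markers and 2 of the 5 hepatocyte markers. Over all genes the share was 15.1%. In the opposite direction lay 1 stellate marker, Acta2, and 0 macrophage, endothelial or hepatocyte markers, against 13.3% of all genes. The log2 of the summed stellate signal was 12.51 and 12.89 in the TA livers of 24 h and 13.12 in their pool, and 13.80 and 13.33 in the TA livers of 6 h and 13.46 in theirs. For macrophage markers it was 13.11 and 13.34 in the TA livers of 24 h and 13.29 in their pool, and 13.64 and 13.35 in the TA livers of 6 h and 13.34 in theirs. Animal 1 of 6 h was highest of all arrays for both sums. For the log2 sum of the immediate early genes, animal 1 was lowest among the 6 h arrays only, and its 10.57 was above every 24 h array. By gene, animal 1 lay above every 24 h array for 6 of the 9. It lay within the range of the 24 h arrays for Jun (8.04) and Fos (3.40), and below it for Atf3 (3.42). The part of cell makeup in the differences between times was not tested.

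The other marker lists were short. Of the biliary epithelial markers, Krt19 and Epcam were kept. Krt19 was at 6.54 and 5.55 in the TA livers of 24 h and 6.51 in their pool. At 6 h it was at 6.98 and 6.69 in the TA livers and 6.86 in the pool. Epcam was at 9.53 and 9.29 in the TA livers of 24 h and 8.91 in their pool. At 6 h it was at 10.44 and 9.53 in the TA livers and 9.79 in the pool. Neutrophil and lymphocyte lists had 2 kept genes each, with log2 sums of 4.85 to 5.82 and 4.70 to 4.92 over the arrays. The neutrophil gene S100a9 was at 3.93 and 4.70 in the TA livers of 24 h and 5.37 in their pool, and at 4.08 and 5.03 in the TA livers of 6 h and 3.93 in theirs.

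Genes that followed a pattern across the 6 arrays most like that of a member were sought for the 4 genes whose range was at least 2 on the log2 scale. Nearness is the root mean square distance of the centred values over the 6 arrays, and it carries no test. For Jun the nearest were Dusp1 (0.41), the chemokine gene Cxcl10 (0.43) and the cadherin gene Cdh11 (0.44). For Junb they were the adhesion scaffold Nedd9 (0.27), the liver transcription factor Foxa2 (0.30) and Rad54l2 (0.34). Foxa2 was at 9.20 and 9.001 in the TA livers of 24 h and 9.13 in their pool, and at 9.41 and 10.69 in the TA livers of 6 h and 10.77 in theirs. For Egr1 they lay further off: Hsd17b2, a steroid dehydrogenase (0.52), the clock receptor gene Nr1d2 (0.55) and the metallothionein Mt1 (0.58). Nr1d2 was at 7.61 and 6.61 in the TA livers of 24 h and 7.14 in their pool, and at 10.97 and 10.81 in the TA livers of 6 h and 11.46 in theirs. For Myc the nearest were Adgrg2 (0.10), Cdh11 (0.23) and the NADPH oxidase gene Nox4 (0.29). Like Myc they were highest in TA animal 2 of 6 h and next in the 6 h vehicle pool, an order that follows from how they were chosen. Adgrg2 was near the floor elsewhere, at 2.65 to 2.82 on the 24 h arrays and 2.79 in TA animal 1 of 6 h. Cdh11 (3.19 to 3.21) and Nox4 (3.62 to 3.68) were low and flat at 24 h. Cdh11 is thus near both Jun and Myc.

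**Figure D5:**
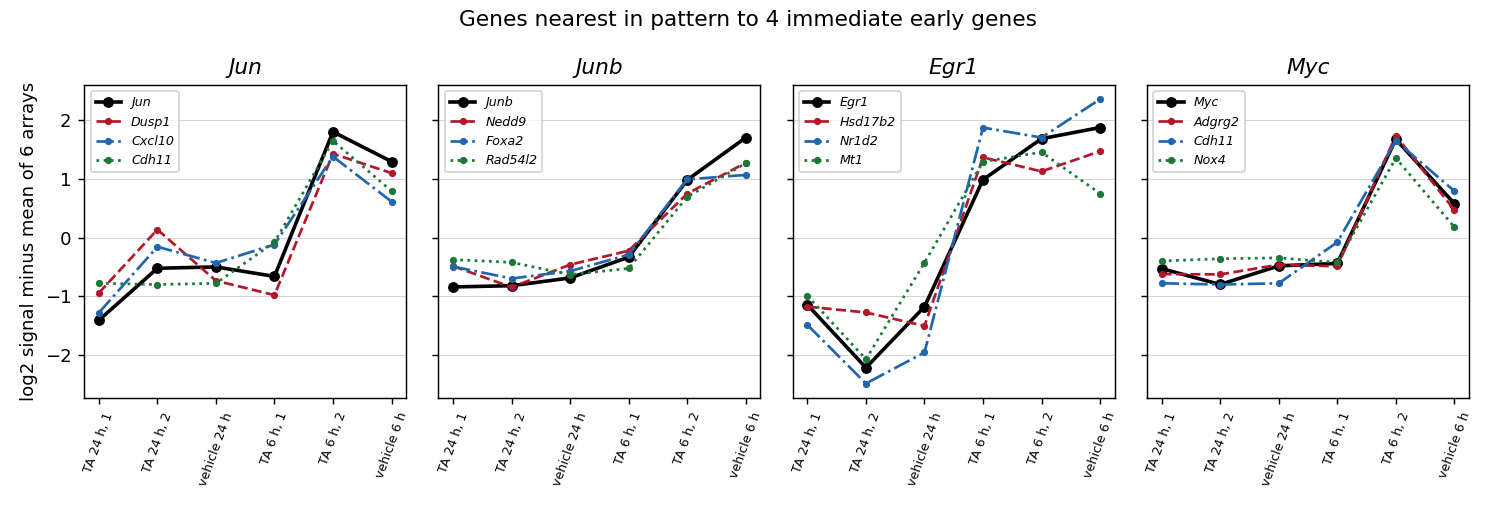
Log2 signal minus the mean of the 6 arrays for Jun, Junb, Egr1 and Myc (black) and the 3 nearest genes of each (colours), with TA and vehicle of 24 h left of TA and vehicle of 6 h. Jun and Myc peak in TA animal 2 of 6 h, and Junb and Egr1 in the 6 h vehicle pool.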

How the data were processed

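The authors deposited log2 values of 31099 probe sets on 6 Affymetrix rat arrays. The submitters' processing notes name R 2.0.1, affy 1.5.8, RMA and GCRMA, and whether RMA or GCRMA made the values is not stated in what was used here. Scanner intensities were not analysed, and the number of arrays sets the precision. The other deposited files hold instrument settings per array, from whose hybridization clock times, without the date, the runs were inferred.

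Control probe sets (57) were left out, and 18625 probe sets with a mean above the 40th percentile (2.82) were kept. In the platform annotation, possibly outdated, 20826 probe sets have 1 symbol, 436 several and 9780 none. A mean for each of the 4 groups was estimated by limma 3.58.1 under R 4.3.3 (functions lmFit and eBayes, 2 residual and 1.60 prior degrees of freedom), with two-sided p-values adjusted by the Benjamini-Hochberg method over all probe sets and called under 0.05. They measure the spread between TA animals and assume that a pool varies like an animal. Counts over genes used 10449 genes.

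The members and the 14 other gene lists were chosen with earlier results of these data known. All members were named, from each other list the genes called in a comparison or else the 2 with the smallest p, and 3 nearest genes for each member spanning at least 2 (log2). Dusp1, Dusp6, Gadd45a, Gadd45g, Zfp36, Bhlhe40, Jund, Elk4, Srf and the genes listed beside counts were in part outside this rule and chosen after their values were seen. Promoters came from a RefSeq table of GRCr8. Alternatives covered the filter, the prior, normalization, the summary of probe sets, the control pool, an additive model, the inferred run, a replicate block and leaving out arrays.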

Additional observations from a re-analysis of the deposited data

Results flagged for a closer look

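Atf3 was the gene of the set whose TA animals lay on opposite sides of the vehicle pool at the 2 times, above it at 24 h (0.13 and 0.81 on the log2 scale) and below it at 6 h (-0.83 and -0.29). The difference of the effects, 24 h minus 6 h, was 1.03 ± 0.57 (SE) and was not called by limma's test of the difference (adjusted p = 1).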

How the results depend on the processing

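No immediate early gene was called between TA and vehicle under any alternative that was run. With the pools of the 2 times exchanged, the called probe sets were 0 at 24 h (main 1) and 1 at 6 h (main 0), and the member medians were -1.10 at 24 h and 1.01 at 6 h. In that setting the direction turned for Ier2 (-1.10), Ier3 (-0.80) and Atf3 (-0.33) at 24 h, and for Jun (1.07), Junb (1.01), Egr1 (2.52), Ier2 (0.91), Atf3 (0.24) and Klf6 (0.90) at 6 h. In the difference of the effects it turned for Jun (-3.34), Junb (-3.55), Egr1 (-6.08), Ier2 (-2.01), Ier3 (-2.24) and Atf3 (-0.58). Exchanging the pools adds the difference between the pools to each effect, and 2 times to the difference of the effects. The turns therefore carry the difference between the pools and are no check of the TA effect. With both pools as 1 control group, 0 probe sets were called at 24 h, and the medians were -0.57 at 24 h and 0.35 at 6 h. There the direction turned for Ier2 (-0.51) and Ier3 (-0.23) at 24 h, and for Jun (0.17), Egr1 (0.99), Ier2 (0.32) and Klf6 (0.45) at 6 h. The additive model fits 1 TA effect shared by both times and 1 time effect shared by TA and vehicle arrays. It called 0 probe sets for the TA effect and 3 for the time effect, none of them the probe set that stands for a member. The shared TA effect had a member median of -0.072, with Atf3 at -0.045, and is not an effect at 24 h alone. In this and other settings further members with differences inside their errors changed sign as well. A filter at the 60th percentile left 0 calls at 24 h and 0 in the difference, and the inferred run as a block did the same. Only the TA group of 6 h spans both runs. The block therefore gave the members at 6 h the same values as leaving out TA animal 2 of 6 h, and is no separate check. A trend in the prior gave 2 calls at 24 h. Quantile normalization gave a 24 h median of -0.11. The replicate number does not pair animals of the 2 times (r = -0.08 between the animals' differences, over probe sets). With the replicate block there were 0 calls at 24 h and 0 in the difference, and the 24 h median was -0.40.

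Leaving out each array in turn gave 0 to 2 calls at 24 h, and 0 each time in the difference, at 6 h and between the TA groups. The difference was refitted without each TA animal. Calls at 24 h were 0 without TA animal 1 or 2 of 6 h and 2 without TA animal 1 of 24 h. The member medians ranged from -0.13 to -0.024 at 24 h, from -0.83 to 0.26 at 6 h and from -1.51 (without TA animal 1 of 6 h) to -0.31 (without TA animal 2 of 6 h) between the TA groups. The genes with all arrays of 24 h below those of 6 h were 6 to 8, a count that leaving out an array can raise but never lower. The cause of these changes was not tested. Of all values for single members in these settings, 10 were labelled reversed, 19 moved by more than their spread and 476 did neither. The 19 include some named above as turned, such as Jun at 6 h with the pools exchanged. Where the spread was wide the 476 include large shifts, such as Jun at 6 h, at 0.51 without TA animal 1 of 6 h and -1.96 without TA animal 2. Low signals limit Fos and Atf3.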
